A study of Mus musculus with 12 samples.

Results

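The expression of 10 genes of the endoplasmic reticulum (ER) folding machinery and its stress response was followed in mouse bone marrow mesenchymal stem cells (MSCs): Hspa5, Hsp90b1, Pdia3, Pdia4, Pdia6, Calr, Canx, Xbp1, Dnajb9 and Creb3l1. They were chosen by gene symbol as named parts of this machinery, and they are 10 of the 55401 genes in the deposited table. All 10 were among the 12016 genes that passed the filter on low values, with at least 3 libraries at an FPKM of 1 or more. FPKM is the number of fragments scaled to the exon length of the gene and to the mapped reads of the library.

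The MSCs were a commercial stock from C57BL/6 mice. They were left untreated, or were given transforming growth factor β1 (TGF-β1) at 5 ng/mL, alone or together with culture supernatant of monocytic (M-MDSC) or granulocytic (G-MDSC) myeloid-derived suppressor cells. M-MDSCs and G-MDSCs are immature myeloid cells with immunosuppressive activity, obtained here by culturing mouse bone marrow cells with the cytokines GM-CSF and IL-6 before sorting. The study describes 24 h of culture with TGF-β1 and supernatant for its MSC experiments. Each of the 4 groups had 3 libraries of poly(A) RNA, and 3 of the groups shared the TGF-β1 treatment. There was no group with supernatant and without TGF-β1. No source says whether the libraries of a group came from separate cultures, so the p-values measure the spread between these libraries, which may be technical. In such bulk RNA, fewer cells that express a gene and less of its RNA per cell cannot be told apart.

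Proteins bound for secretion or for the cell surface are threaded into the ER, folded by chaperones and oxidised by disulfide isomerases, and a collagen-producing cell passes a large load through this route. When unfolded protein accumulates, the sensors IRE1, PERK and ATF6 start the unfolded protein response (UPR). IRE1 splices Xbp1 mRNA so that it encodes an active transcription factor, ATF6 is cut to release another, and PERK slows translation and favours synthesis of ATF4. CREB3L1, also called OASIS, is a relative of ATF6 that is anchored in the ER membrane, released by cleavage, and known for driving collagen transcription in osteoblasts.

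The ER stress response element (ERSE), through which ATF6 and XBP1 act on chaperone promoters, is a motif of this response, and its matches are shown because the promoter windows of some of these genes held it and those of others did not. RefSeq promoter windows of GRCm38.p6, from 250 bases before to 50 bases after the transcription start, were read for 9 of the 10 genes, all but Creb3l1. The element, searched as CCAAT followed by any 9 bases and CCACG on either strand, occurred in 5 of these 9 genes and in 0.137% of the 27025 genes with a window. In the lines that follow, each match is written 5′ to 3′ on the strand of its gene with 5 bases on each side, and capitals mark the fixed letters of the motif or of its reverse complement.
Hspa5 (chr2:34772020-34772048, + strand): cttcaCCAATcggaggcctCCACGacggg
Hsp90b1, distal (chr10:86705633-86705661, - strand): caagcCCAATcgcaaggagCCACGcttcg
Hsp90b1, proximal (chr10:86705528-86705556, - strand): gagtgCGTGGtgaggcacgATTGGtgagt
Pdia6 (chr12:17266486-17266514, + strand): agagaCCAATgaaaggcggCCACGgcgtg
Calr (chr8:84847070-84847098, - strand): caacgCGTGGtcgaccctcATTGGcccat
Canx (chr11:50325795-50325823, - strand): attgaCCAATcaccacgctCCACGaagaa

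The Hspa5 match lay nearest to the RefSeq start of its gene, from 65 to 47 bases before it. The distal Hsp90b1 match lay farthest from its own, from 212 to 194 bases before it. This order is given for the RefSeq starts only. The GENCODE annotation, used here for gene positions, starts Hspa5 at chr2:34771970, upstream of its match. The windows of Pdia3, Pdia4, Xbp1 and Dnajb9 held no match to these letters. The Dnajb9 window, chr12:44210019-44210318, lay wholly inside the gene as GENCODE gives it, chr12:44205559-44210326. No base upstream of that GENCODE start was read for Dnajb9. Other motifs of the response, ERSE-II (ATTGG, any 1 base and CCACG, in 0.0444% of genes), TGACGTGG (a UPR element bound by XBP1 and ATF6, 0.714%) and TGATGNAA (an amino acid response letter pattern, 4.51%), were found in 0 of the 9 windows. A match describes these windows and does not show that a factor bound there.

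The levels of the 10 genes spanned from 4.75 to 665 FPKM over the 12 libraries. Calr, which encodes the lectin chaperone calreticulin, had the highest level, from 615 to 665 FPKM, and its range did not touch that of any other of the genes. Hsp90b1 (342 to 412 FPKM) and Pdia3 (320 to 388 FPKM) overlapped each other and lay above Hspa5 (241 to 303 FPKM). In the next tier, between 112 and 149 FPKM, Pdia6 overlapped both Pdia4 and Canx, which did not overlap each other. The lowest tier held the transcription factor genes Creb3l1 and Xbp1 and the cochaperone gene Dnajb9, none above 32.3 FPKM.

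Together the 10 genes made up 0.588% ± 0.019 of the summed FPKM in untreated MSCs (SD, n = 3). The share was 0.638% ± 0.0069 with TGF-β1, 0.644% ± 0.014 with TGF-β1 and M-MDSC supernatant, and 0.634% ± 0.0022 with TGF-β1 and G-MDSC supernatant. The highest untreated library, at 0.609%, lay below the lowest treated library, at 0.629%.

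**Figure D1:**
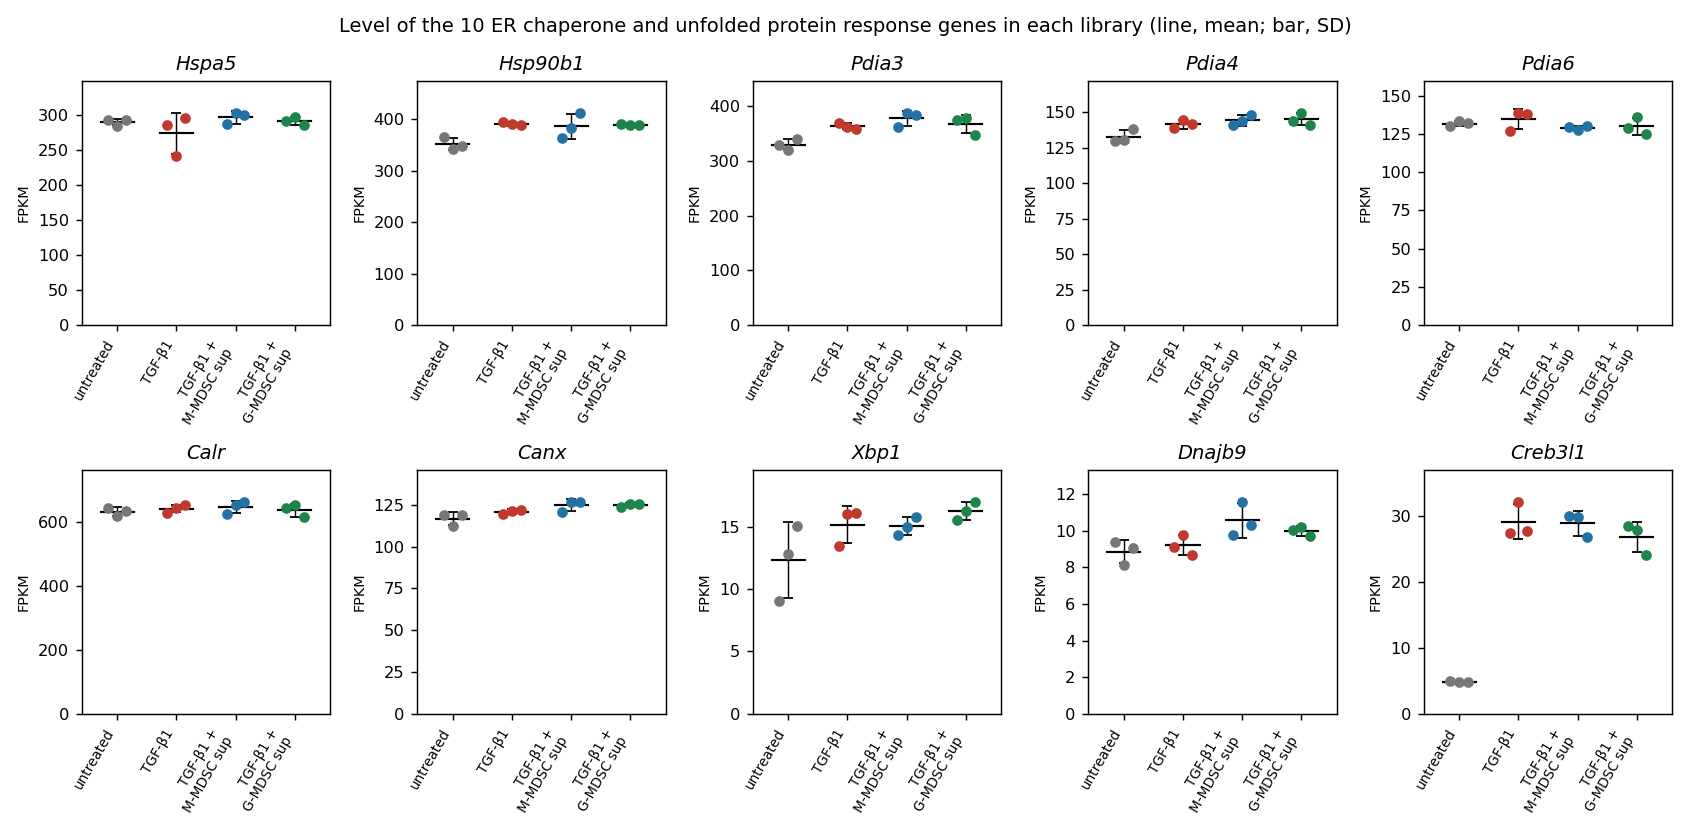
Level of each gene in FPKM (linear axis from 0) in the 12 libraries, 3 for each of the 4 groups, with points for libraries, lines for the group mean and bars for the SD. Creb3l1 sits at about 4.8 FPKM in the 3 untreated libraries and between 24.2 and 32.3 FPKM in the 9 treated libraries, while the fitted changes of the other genes against untreated MSCs stay at or below 1.35-fold.

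The libraries held from 73977669 to 84565450 counts, and the lowest count of any of the 10 genes in a library was 1096. MSC markers were present in every group: 9 of the 10 markers listed passed the filter, and the summed level of the 10 ranged from 515 to 622 FPKM. That sum held moves in opposite directions, since 4 of the 9 were higher and 5 lower with TGF-β1 than in untreated MSCs (adjusted p under 0.05 in edgeR), with Ly6a, which encodes SCA-1, at a mean of 16.2 against 245 FPKM. Itgb1 alone had 247 to 263 FPKM in untreated MSCs and 381 to 388 FPKM with TGF-β1. Other markers of the list were low in every group, with Thy1 at most 5.27 FPKM and Nt5e at most 1.66 FPKM. Eng, at most 0.968 FPKM, was the marker that did not pass the filter. Summed markers of myeloid cells stayed at or below 8.13 FPKM, those of endothelial cells at or below 0.600 FPKM and those of lymphoid cells at or below 0.0851 FPKM.

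TGF-β1 against untreated MSCs asks what the profibrotic cytokine alone did to this machinery. Creb3l1 rose 6.31-fold, and the ER chaperone and isomerase genes Hsp90b1, Pdia3, Pdia4 and Canx rose by 1.08-fold to 1.16-fold. Hspa5, the classical marker of the UPR, did not pass the test, and neither did Calr, Pdia6, Xbp1 or Dnajb9. In all, 5 of the 10 genes were higher and 0 were lower at an adjusted p under 0.05 (edgeR's quasi-likelihood test, Benjamini-Hochberg adjustment over all genes tested), where 16.1% of all genes tested were higher and 17.9% were lower. Their median log2 fold change was 0.13, beside 0.00048 over all genes tested. Without regard to sign, the median size of the change was 0.13 for the 10 genes, below the 0.20 over all genes tested. The same 5 genes were those whose TGF-β1 libraries all lay above the untreated ones, as 16.6% of all genes tested did.

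Creb3l1 (ENSMUSG00000027230, chr2:91982328-92024502, GRCm38) had 4.93, 4.75 and 4.75 FPKM in the 3 untreated libraries. It had 27.5, 32.3 and 27.7 FPKM with TGF-β1, 30.1, 29.9 and 26.8 FPKM with M-MDSC supernatant added, and 28.5, 27.9 and 24.2 FPKM with G-MDSC supernatant added. The untreated libraries thus lay apart from all 9 treated ones, and the 3 treated groups overlapped. The log2 fold change of TGF-β1 against untreated MSCs was 2.66 (SE 0.087, 95% interval 2.47 to 2.85, adjusted p = 4.28e-09 in edgeR). Creb3l1 was the only gene of the 10 that met the study's own criterion for a changed gene, more than 2-fold higher or less than 0.5 of the level, together with an unadjusted p under 0.05. By that criterion 2.60% of all genes tested were higher and 4.14% were lower.

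Hspa5 (ENSMUSG00000026864, chr2:34771970-34777547) encodes BiP, the ER member of the HSP70 family, which binds nascent chains and keeps the UPR sensors inactive. Its level was 293, 285 and 292 FPKM in untreated MSCs and 285, 241 and 295 FPKM with TGF-β1. Replicate 2 of the TGF-β1 group was the lowest of all 12 libraries. The log2 fold change was -0.027 (95% interval -0.16 to 0.11, adjusted p = 0.785 in edgeR), and it was 0.056 without that library. The groups overlapped, and the interval leaves room for a fall to 0.893-fold or a rise to 1.08-fold.

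Hsp90b1 (ENSMUSG00000020048, chr10:86690209-86705509) encodes GRP94, the ER member of the HSP90 family, which folds integrins, Toll-like receptors and insulin-like growth factors. Its level was 365, 342 and 349 FPKM in untreated MSCs and 394, 390 and 388 FPKM with TGF-β1. Every TGF-β1 library lay above every untreated one, and the log2 fold change was 0.21 (SE 0.042, adjusted p = 0.00284 in edgeR). On the opposite strand the gene overlaps 1810014B01Rik, whose counts came to 1.62% of those of Hsp90b1, and on the same strand it overlaps Gm25745, at 2.47%. The libraries were prepared with strand marking, but the strand setting of the counting is not given in the sources used here.

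The protein disulfide isomerases form and rearrange the disulfide bonds of secreted proteins. Pdia3 (ENSMUSG00000027248, chr2:121413775-121438687) encodes ERp57, which works on glycoproteins held by calreticulin and calnexin. It had 329, 320 and 341 FPKM in untreated MSCs and 370, 363 and 358 FPKM with TGF-β1, without overlap, and its log2 fold change was 0.20 (SE 0.041, adjusted p = 0.00327 in edgeR).

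Pdia4 (ENSMUSG00000025823, chr6:47796141-47813430), which encodes ERp72, had 130, 131 and 138 FPKM in untreated MSCs and 139, 145 and 141 FPKM with TGF-β1. These did not overlap either, though the highest untreated and the lowest TGF-β1 library were less than 1 FPKM apart. The log2 fold change was 0.15 (SE 0.037, adjusted p = 0.00851 in edgeR). It lost the call without untreated replicate 1 (0.11) or untreated replicate 2 (0.13), with library totals as the only scaling (0.090), and with limma on log2(FPKM + 1) (0.093) or log2(FPKM + 0.1) (0.094).

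Pdia6 (ENSMUSG00000020571, chr12:17266545-17284770) encodes P5, an isomerase that also attenuates IRE1 signalling. Its level was 130, 133 and 132 FPKM in untreated MSCs and 127, 139 and 138 FPKM with TGF-β1. The TGF-β1 libraries lay on both sides of the untreated ones, and the log2 fold change of 0.091 did not pass (95% interval -0.0010 to 0.18, adjusted p = 0.122 in edgeR). Without TGF-β1 replicate 1, the low library, it passed at 0.13.

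Calreticulin and calnexin bind monoglucosylated glycoproteins in the ER, the former in the lumen and the latter in the membrane. Calr (ENSMUSG00000003814, chr8:84841850-84846934) had 645, 618 and 636 FPKM in untreated MSCs and 630, 643 and 653 FPKM with TGF-β1. The groups overlapped, and the log2 fold change of 0.078 did not pass (95% interval 0.0066 to 0.15, adjusted p = 0.0895 in edgeR).

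Canx (ENSMUSG00000020368, chr11:50293961-50325673) had 119, 112 and 119 FPKM in untreated MSCs and 119, 121 and 122 FPKM with TGF-β1. The groups did not overlap, but by less than 1 FPKM, and the log2 fold change was 0.11 (SE 0.032, adjusted p = 0.0224 in edgeR). This was the least stable of the 5 calls. It was lost without untreated replicate 1 (0.10), untreated replicate 2 (0.068), TGF-β1 replicate 2 (0.10) or TGF-β1 replicate 3 (0.091), with library totals as the only scaling (0.047), with limma on log2(FPKM + 1) (0.050) or log2(FPKM + 0.1) (0.051), and in a fit of the compared groups alone (0.11).

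Xbp1 (ENSMUSG00000020484, chr11:5520659-5525893) had 9.05, 12.8 and 15.1 FPKM in untreated MSCs and 13.4, 16.0 and 16.1 FPKM with TGF-β1. The untreated libraries were the most spread of any group and gene among the 10, with a coefficient of variation of 24.7%, with replicate 1 lowest and replicate 3 inside the TGF-β1 range. The log2 fold change was 0.36 (95% interval 0.026 to 0.69, adjusted p = 0.0938 in edgeR). It moved to 0.16 without untreated replicate 1, and it passed, at 0.52, without untreated replicate 3. Counts per gene do not separate spliced from unspliced Xbp1 mRNA, so IRE1 activity was not measured here.

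Dnajb9 (ENSMUSG00000014905, chr12:44205559-44210326) encodes ERdj4, a J-domain partner of BiP and a target of XBP1. It had 9.37, 8.15 and 9.04 FPKM in untreated MSCs and 9.14, 9.77 and 8.68 FPKM with TGF-β1. The groups overlapped, and the log2 fold change of 0.11 did not pass (95% interval -0.063 to 0.29, adjusted p = 0.319 in edgeR).

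Set beside the promoter windows, the 5 genes with an ERSE match had log2 fold changes from -0.027 for Hspa5 to 0.21 for Hsp90b1. The 4 genes whose windows held no match had 0.11 for Dnajb9, whose window lay inside its annotated gene, to 0.36 for Xbp1. Hsp90b1 and Canx passed in the first set, and Pdia3 and Pdia4 in the second. Differences between genes were not tested, and the 95% interval of Canx (0.038 to 0.18) lay within that of Pdia6 and overlapped that of Calr.

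**Figure D2:**
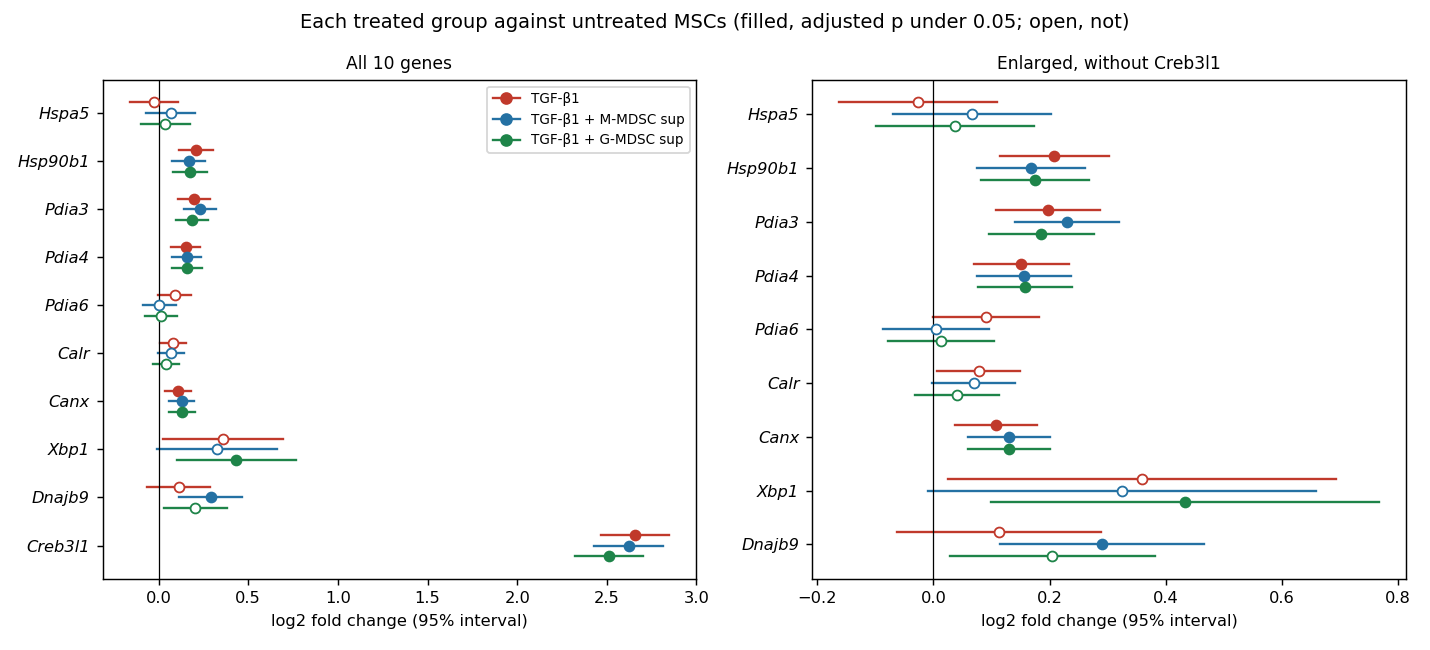
Log2 fold change of each gene against untreated MSCs, on the left for all 10 genes and on the right enlarged without Creb3l1, with points for TGF-β1 alone and with M-MDSC or G-MDSC supernatant and lines for 95% intervals. Creb3l1 lies between 2.51 and 2.66 in the 3 comparisons, and the other genes lie between -0.027 and 0.43.

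The treated groups with supernatant were also compared with untreated MSCs. These comparisons share the untreated libraries with the one already described, so their values are given side by side and are not independent of it. With TGF-β1 and M-MDSC supernatant, 6 of the 10 genes were higher and 0 lower, where 16.4% of all genes tested were higher and 18.9% lower. In the G-MDSC group, 6 of the 10 were higher and 0 lower, where 16.4% of all genes were higher and 18.4% lower. The median log2 fold change of the 10 genes was 0.16 and 0.17, beside 0.00094 and 0.0013 over all genes tested. Without regard to sign, the medians were 0.16 and 0.17 for the 10 genes and 0.20 and 0.20 over all genes tested.

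Creb3l1 was 6.16-fold higher than in untreated MSCs with M-MDSC supernatant (95% interval 5.39 to 7.03) and 5.71-fold higher with G-MDSC supernatant (5.00 to 6.51). Hsp90b1 had log2 fold changes of 0.17 and 0.18, in the order M-MDSC and G-MDSC. Pdia3 had 0.23 and 0.19. These genes, with Pdia4 (0.16 and 0.16) and Canx (0.13 and 0.13), passed in both, though Canx lost the call in the M-MDSC comparison with limma on log2(FPKM + 1) (0.094) or log2(FPKM + 0.1) (0.095). In the M-MDSC group the Hsp90b1 libraries, at 363, 382 and 412 FPKM, overlapped the untreated ones.

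Dnajb9 passed in the M-MDSC group, with 9.76, 11.6 and 10.3 FPKM and a log2 fold change of 0.29 (SE 0.079, adjusted p = 0.0158 in edgeR). It lost the call without untreated replicate 2 (0.24) or M-MDSC supernatant replicate 2 (0.22), and in a fit of the compared groups alone (0.29). In the G-MDSC group it had 10.04, 10.2 and 9.69 FPKM, all above the untreated libraries, and a log2 fold change of 0.20 that did not pass (adjusted p = 0.0704), though it passed in DESeq2 (0.21).

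Xbp1 passed in the G-MDSC group, with 15.5, 16.3 and 17.0 FPKM and a log2 fold change of 0.43 (95% interval 0.10 to 0.77, adjusted p = 0.0464 in edgeR). That call did not hold in 15 of 22 alternatives, among them the fit without untreated replicate 1 (0.25). In the M-MDSC group it had 14.4, 15.0 and 15.8 FPKM and a log2 fold change of 0.32 (adjusted p = 0.125).

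Hspa5, Pdia6 and Calr passed in neither group. Hspa5 had 287, 303 and 300.0 FPKM in the M-MDSC group and 291, 296 and 286 FPKM in the G-MDSC group. Its log2 fold changes against untreated MSCs were 0.067 (95% interval -0.069 to 0.20) and 0.036 (-0.10 to 0.17).

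The comparison of each supernatant with TGF-β1 alone asks what the supernatant changed in cells that already received the cytokine. None of the 10 genes passed with either supernatant, where 4.78% of all genes tested passed in the M-MDSC comparison and 5.56% in the G-MDSC comparison, in either direction. At an unadjusted p under 0.05, 1 gene was found with M-MDSC supernatant, Dnajb9, and 0 with G-MDSC supernatant, where 16.7% and 17.2% of all genes tested were below that threshold. DESeq2 and limma also called 0 of the 10. Both comparisons share the TGF-β1 libraries. Creb3l1 itself had log2 fold changes relative to TGF-β1 alone of -0.035 with M-MDSC supernatant (95% interval -0.21 to 0.14, adjusted p = 0.889 in edgeR) and -0.15 with G-MDSC supernatant (-0.32 to 0.034, adjusted p = 0.416).

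The intervals bound what could have been missed. For the 9 genes other than Creb3l1, log2 fold changes against TGF-β1 alone ran from -0.087 to 0.18 with M-MDSC supernatant and from -0.077 to 0.092 with G-MDSC supernatant. The widest interval was that of Xbp1, from -0.37 to 0.30 with M-MDSC supernatant and from -0.26 to 0.41 with G-MDSC supernatant. Dnajb9 had the largest value, 0.18 with M-MDSC supernatant (95% interval 0.0012 to 0.35, adjusted p = 0.295).

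The supernatants of M-MDSCs and of G-MDSCs were compared with each other in the presence of TGF-β1. None of the 10 genes passed, and none had an unadjusted p under 0.05, where 6.33% of all genes tested did. Only 0.125% of all genes tested passed. Creb3l1 had 28.9 ± 1.8 FPKM with the former and 26.9 ± 2.3 FPKM with the latter (SD, n = 3), a log2 difference of 0.11 (95% interval -0.069 to 0.29). For every one of the 10 genes the libraries of the 2 groups overlapped, where 5.97% of all genes tested were higher and 6.03% lower without overlap.

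**Figure D3:**
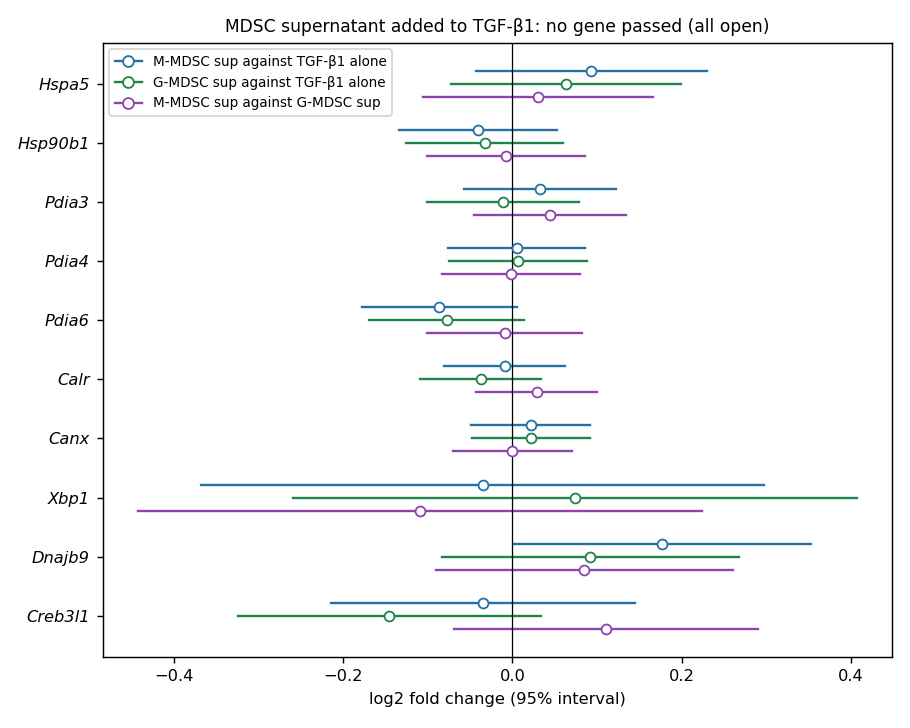
Log2 fold change of each gene with M-MDSC or G-MDSC supernatant against TGF-β1 alone, and of M-MDSC against G-MDSC supernatant, with 95% intervals. All points are open because no gene passed, and the values lie between -0.15 and 0.18.

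Markers of other tissues did differ between these groups. The summed level of 7 kidney tubule markers was 4.21 to 4.38 FPKM with TGF-β1 alone, 15.0 to 82.2 FPKM in the M-MDSC group and 46.4 to 60.2 FPKM in the G-MDSC group, and it was 28.9 to 30.4 FPKM in untreated MSCs, nearly all of it Aqp1. Of these markers, Slc34a1, Umod, Cdh16 and Kap were listed at 0 in every untreated and every TGF-β1 library. Kap, an androgen-regulated gene of the proximal tubule, made up most of the sum with supernatant, at 9.20 to 69.2 FPKM in the M-MDSC group and 37.1 to 51.2 FPKM in the G-MDSC group. Of the 5 kidney markers that passed the filter on low values, Kap, Slc34a1, Umod and Miox did so only through the supernatant groups. The filter thus selected these genes for the difference, so no test result is given for them. Aqp1 was lower in the G-MDSC group than with TGF-β1 alone (log2 fold change -0.40, adjusted p = 0.0328 in edgeR). The summed level of 10 myeloid markers was 4.61 to 5.39 FPKM in untreated MSCs and 2.19 to 3.18 FPKM with TGF-β1 alone. It was 4.15 to 6.65 FPKM in the M-MDSC group and 5.55 to 8.13 FPKM in the G-MDSC group. Cd68 had means of 2.38 FPKM untreated, 1.48 with TGF-β1 alone, 2.35 in the M-MDSC group and 2.07 in the G-MDSC group. For Ly6g the means were 1.83, 0.068, 0.062 and 0.13 FPKM in the same order. Mpo, Elane, S100a8 and S100a9 were listed at 0 in every TGF-β1 library, and Mpo and Elane alone were at 0 throughout both supernatant groups. Itgam, which encodes CD11b, was at most 0.0927 FPKM in the M-MDSC group and 0.0872 FPKM in the G-MDSC group, and S100a9 at most 0.980 and 3.40 FPKM. Of the myeloid markers, 4 of 10 passed the filter on low values, and among these 4, Cd68, Ly6g and Csf1r were not called against TGF-β1 alone with either supernatant. Lyz2, which encodes lysozyme, passed the filter only through the supernatant groups, so no test result is given for it. Lyz2 was at most 0.191 FPKM in untreated MSCs and 0.0940 FPKM with TGF-β1 alone. It was 0.651 to 2.29 FPKM in the M-MDSC group and 1.56 to 2.11 FPKM in the G-MDSC group. The part of such RNA in the levels of the 10 genes was not tested.

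Other genes of the ER route and of the stress response were examined in 6 lists for TGF-β1 against untreated MSCs, a comparison in which 16.1% of all genes tested were higher and 17.9% lower, with a median log2 fold change of 0.00048. Among the UPR sensors and the enzymes that activate them, 3 of 8 tested genes were higher and 0 lower, with a median log2 fold change of 0.13. Creb3l2, a close relative of Creb3l1, rose by 0.64 on the log2 scale (SE 0.060, adjusted p = 1.08e-05 in edgeR), from a mean of 14.3 to 21.5 FPKM. Ern1, which encodes IRE1α, rose by 0.44 (SE 0.10, adjusted p = 0.00637).

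The PERK to ATF4 and CHOP branch had the highest median of the lists, 0.83, with 7 of 9 genes higher and 1 lower. Trib3, a pseudokinase gene induced by ATF4 and CHOP, rose by 1.51 (SE 0.074, adjusted p = 8.67e-08), and Sesn2, which encodes the leucine sensor sestrin 2, rose by 0.99 (SE 0.081, adjusted p = 4.72e-06). Ddit3, which encodes the transcription factor CHOP, fell by 0.29 (SE 0.078, adjusted p = 0.0144), from a mean of 33.2 to 26.0 FPKM. Atf4 itself, named here after its values were seen, had a log2 fold change of 0.84 with a wide interval (-0.054 to 1.74) and did not pass (adjusted p = 0.141).

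Among other ER chaperones and folding enzymes, 8 of 19 genes were higher and 0 lower, with a median of 0.11. The disulfide isomerase gene Pdia5 rose by 0.74 (SE 0.079, adjusted p = 3.09e-05), and Ero1l, whose product ERO1α reoxidises the isomerases, rose by 0.59 (SE 0.073, adjusted p = 0.000101). In ER-associated degradation, which returns misfolded proteins to the cytosol, 3 of 13 genes were higher and 0 lower, with a median of 0.11. That share of 23.1% was near the 16.1% of all genes tested, so the genes named next are given for their own values. Herpud1, a component of the retrotranslocation complex, rose by 0.57 (SE 0.078, adjusted p = 0.000194), and Derl1, another, by 0.36 (SE 0.042, adjusted p = 6.46e-05).

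Of the genes for translocation into the ER and for COPII export from it, 17 of 24 were higher and 0 lower, with a median of 0.26. Spcs3, a subunit of the signal peptidase, rose by 0.90 (SE 0.037, adjusted p = 2.36e-08), from a mean of 47.1 to 84.4 FPKM. Srp54a, for a subunit of the signal recognition particle, rose by 0.74 (SE 0.21, adjusted p = 0.0177), with the reservation that near-identical gene copies may share its reads.

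The heat shock proteins of the cytosol and mitochondria, which are not part of the ER machinery, had 5 of 13 genes higher and 6 lower, with a median of 0.053. The mitochondrial chaperone genes Hspa9 and Hspd1 rose by 0.19 (SE 0.033, adjusted p = 0.00123) and 0.18 (SE 0.039, adjusted p = 0.00409). The stress-inducible cytosolic genes Hspa1a and Hspa1b fell by 1.11 (SE 0.26, adjusted p = 0.0069) and 1.02 (SE 0.10, adjusted p = 1.91e-05). The latter genes are near-identical copies, so the division of reads between them is uncertain.

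With library totals as the only scaling, 12.3% of all genes tested were higher and 22.7% lower with TGF-β1, with a median of -0.058. On that scale the other ER chaperones had 7 genes higher and 1 lower, translocation and COPII export 14 and 1, and the cytosolic and mitochondrial heat shock proteins 2 and 6, with a median of -0.0076. The median was 0.054 for the other ER chaperones, 0.044 for ER-associated degradation and 0.066 for the UPR sensors. Counts per direction in the remaining 3 lists were the same.

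**Figure D4:**
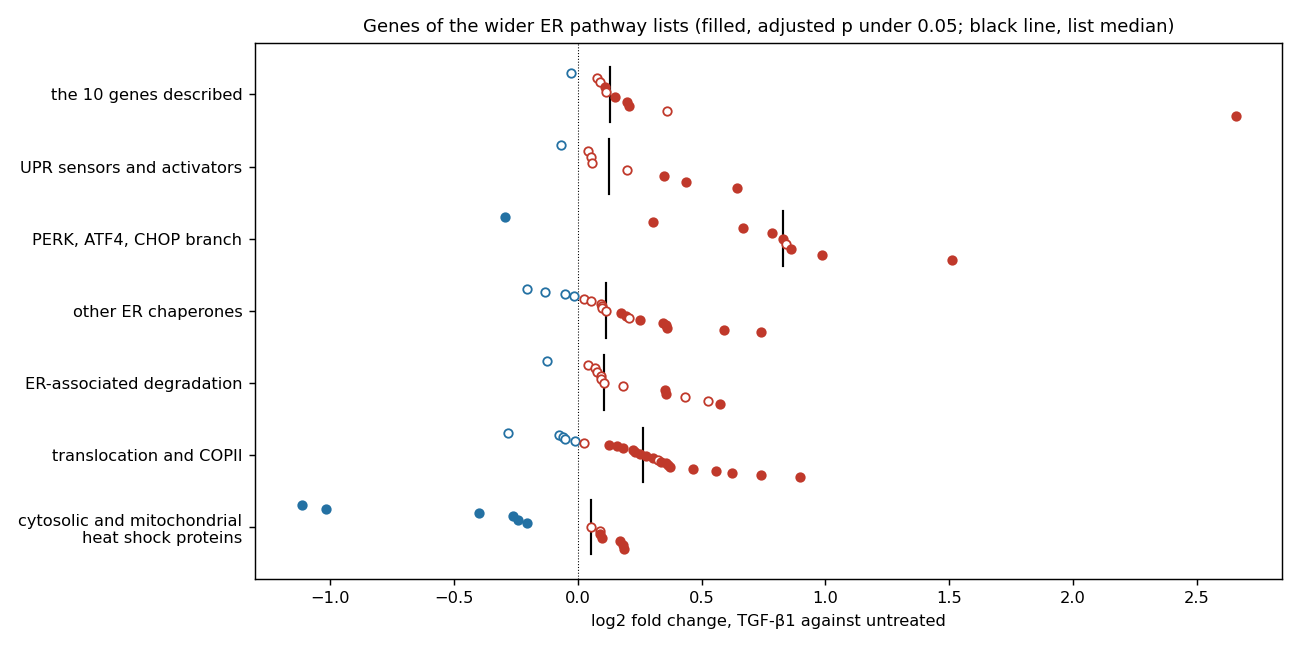
Log2 fold change of TGF-β1 against untreated MSCs for every tested gene of the 10 described and of 6 wider lists, with filled points for an adjusted p under 0.05 and a black line for the list median. The list for the PERK, ATF4 and CHOP branch has the highest median (0.83), and Creb3l1, at 2.66, lies to the right of all other points.

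When supernatant was compared with TGF-β1 alone, 5 of the 86 tested genes of these lists passed in the M-MDSC comparison and 6 in the G-MDSC comparison. These shares, 5.81% and 6.98%, were near the 4.78% and 5.56% of all genes tested, so the genes that passed are given for their own values and not as a result about the lists. Eif2ak3, which encodes PERK, was lower with both, at -0.30 for M-MDSC (SE 0.072, adjusted p = 0.0431 in edgeR) and -0.29 for G-MDSC supernatant (SE 0.072, adjusted p = 0.0407). Trib3 was lower with G-MDSC supernatant, at -0.34 (SE 0.072, adjusted p = 0.0200). The genes for the ER reductase Dnajc10 (-0.18 and -0.19) and for the COPII coat subunit Sec24d (-0.19 and -0.17) were lower with both supernatants, and P4hb, the archetypal disulfide isomerase and a subunit of collagen prolyl hydroxylase, was lower with G-MDSC supernatant (-0.12). Higher with both was Hsp90aa1, the inducible cytosolic HSP90 (0.29 and 0.32), and Hspa4 was higher with M-MDSC supernatant (0.15). No gene of the 6 lists passed between the 2 supernatants.

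The profile of the 10 genes over the 12 libraries, taken as the mean of their standardised log levels, was followed most closely by Tmx1 (Pearson r = 0.970), Dld (0.957), Tm9sf2 (0.948), Ltv1 (0.947) and Tsg101 (0.936) among the other genes tested. Tmx1, which encodes a transmembrane disulfide isomerase of the ER, had 13.4 ± 0.58 FPKM in untreated MSCs and 14.8 ± 0.34 with TGF-β1 (SD, n = 3). The correlation is a description over libraries of all 4 groups, so a gene that merely differed between untreated and treated MSCs scores high. Within the 10 genes, Pdia4 (0.942), Pdia3 (0.936) and Canx (0.905) lay closest to the common profile, and Hspa5 (0.163) and Pdia6 (0.0826) lay farthest from it.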

How the data were processed

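RNA sequencing of 12 MSC libraries, 3 in each of 4 groups, was used. The submitters' processing notes name cutadapt 1.9, HISAT2 2.0.4 and StringTie 1.3.4d, and the study's methods give GRCm38, alignment with HISAT2 and assembly with StringTie. The authors deposited raw counts per gene and the FPKM they calculated from them, where 0.0001 stands for no reads. The counting tool is not given in the sources used here, and 44.3% of the nonzero counts up to 12 were multiples of 4. Genes reaching an FPKM of 1 in 3 or more libraries, 12016 in all, entered the test. TMM scaling was applied to the counts, 1 model with all 4 groups was fitted in edgeR 4.0.16 (R 4.3.3), and the quasi-likelihood F test was two-sided. Adjusted p-values follow Benjamini and Hochberg, over every gene tested. Intervals are 95% intervals of the fit. Alternatives used DESeq2 1.42.0, limma 3.58.1 on log2(FPKM + 1), other scalings and filters, a replicate block, and leaving out each library. Motifs were searched with Python 3.11.15, and gene positions were taken from the GENCODE annotation of GRCm38. The genes and lists were chosen with earlier results of these data known. From each wider list, the text names the 2 genes with the largest rise and the 2 with the largest fall that passed for TGF-β1 against untreated MSCs, and those that passed with a supernatant. The fit was tested on simulated data.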

Additional observations from a re-analysis of the deposited data

How the results depend on the processing

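Of the 10 genes, 5 passed for TGF-β1 against untreated MSCs. That count was 3 with library totals as the only scaling, 3 with limma on log2(FPKM + 1), 3 with limma on log2(FPKM + 0.1) and 1 by the rule of the study. Leaving out each library in turn gave 3 to 6, with 3 without untreated replicate 1 or without untreated replicate 2. Hsp90b1, Pdia3 and Creb3l1 passed in all 22 alternatives other than that rule, and Creb3l1 ranged from 2.37 to 2.70 on the log2 scale. Against untreated MSCs, 6 genes passed in each of the M-MDSC and G-MDSC supernatant groups, 1 in each by the rule of the study, and 5 to 7 and 5 to 6 when each library was left out. The 3 comparisons among treated groups gave 0 in every alternative. Over all 6 comparisons, 17 passing values gave 374 values under alternatives, of which 341 still passed, 33 did not, and 0 changed direction. Scaling moved the median of all genes by at most 0.058.

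Libraries with the same replicate number did not deviate together (mean correlation -0.0038 over 18 pairs, and 0.0020 over 36 pairs with different numbers). With the replicate block, 6, 7 and 6 genes passed against untreated MSCs for TGF-β1 alone, with M-MDSC and with G-MDSC supernatant, Xbp1 among them in each, and 0 passed in the other comparisons. The lowest count behind any of the 10 genes was 1096, and the number of libraries, 3 a group, limits the precision.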
